A study of Mus musculus with 6 samples.

Results

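The mRNA levels of 10 circadian clock genes (Clock, Arntl, Per1, Per2, Cry1, Cry2, Nr1d1, Nr1d2, Dbp and Nfil3) were measured in B16F10 cells, a pigmented mouse melanoma line, with and without an extract of Polianthes tuberosa (tuberose). The genes were chosen by name, with earlier results of these data known, and all 10 were found among the 27067 gene identifiers of the count table. The treated group comprised 3 libraries of polyadenylated RNA from extract-treated B16F10 cells, and the control group 3 libraries from control B16F10 cells, whose columns are named blank. RNA from all 6 was extracted at the same time, per the labels. The dose, the length of treatment, the hour of harvest and any synchronisation of the cultures are not stated in the labels. Clock transcripts oscillate over the day, so with a single sampling of each group a change in level cannot be told apart from a shift in phase. Nor do the sources say whether the controls received the solvent of the extract or whether replicates were separate cultures. Each p-value is thus set against the spread of these libraries alone, and that spread may be technical. In bulk RNA, fewer cells expressing a gene and less RNA per cell cannot be told apart.

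The mammalian clock is a loop of transcription that turns on itself. CLOCK and BMAL1, the product of Arntl, bind E-box sequences as a dimer and activate Per and Cry genes, whose proteins later return to the nucleus and block that dimer. A further loop acts on Arntl, which REV-ERB proteins (from Nr1d1 and Nr1d2) repress and ROR proteins activate through shared elements. Output is passed on in part through D-box sequences, which DBP, TEF and HLF activate and NFIL3 represses.

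The deposited counts summed to between 31183728 and 33717357 per treated library and between 31991473 and 40129044 per control library. Libraries of the same group had correlations of log2 CPM (CPM being reads of a gene relative to the library total, scaled by TMM) of 0.993 to 0.994. All 9 pigment cell markers checked were tested, and 8 were called lower and 1 higher (Tyrp1) in treated libraries at an edgeR adjusted p under 0.05. Of all 15150 tested genes, 27.9% were called lower and 25.1% higher. The summed level of the 9 pigment cell markers was 14400 to 15300 CPM in treated and 17400 to 18000 CPM in control libraries. Of 12 markers of immune, endothelial, epithelial and fibroblast cells, 9 were in the table, 5 were tested and 2 were called higher in treated libraries (Cd68 and Col1a1). Their summed level was 18 to 18.5 CPM in treated and 10.5 to 14.1 CPM in control libraries, and Ptprc, Cdh5, Krt5 and Krt14 were each at 0 in 5 of 6 libraries. The part of these markers in the results was not tested.

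Extract-treated cells had more mRNA of Nfil3, the repressor of D-box genes, and of Arntl, and less of Cry2, a repressor of the CLOCK and BMAL1 dimer. Nfil3 rose by 37.4%, Arntl rose by 14.8% and Cry2 fell by 0.40 on the log2 scale, to 0.759 of its level in control cells. The other 7 clock genes did not pass the test (edgeR quasi-likelihood test, Benjamini-Hochberg adjusted p under 0.05 over all 15150 genes tested). Thus 3 of 10 clock genes changed, where 53.0% of all tested genes did. Of the 10, 2 were higher, against 25.1% of tested genes, and 1 was lower, against 27.9%. Their median log2 fold change was -0.01, against 0.0068 for all tested genes, and their median absolute log2 fold change was 0.12, while that of all tested genes was 0.22. Among the 12018 tested genes within the same range of mean CPM, 49.9% changed and the median absolute log2 fold change was 0.23. Treated and control libraries did not overlap for Nfil3, Arntl, Cry2 and Clock, which is 4 of 10 genes, and for 58.7% of tested genes. The clock genes were thus called no more often than the rest of the transcriptome. All 10 passed the filter on low counts.

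**Figure D1:**
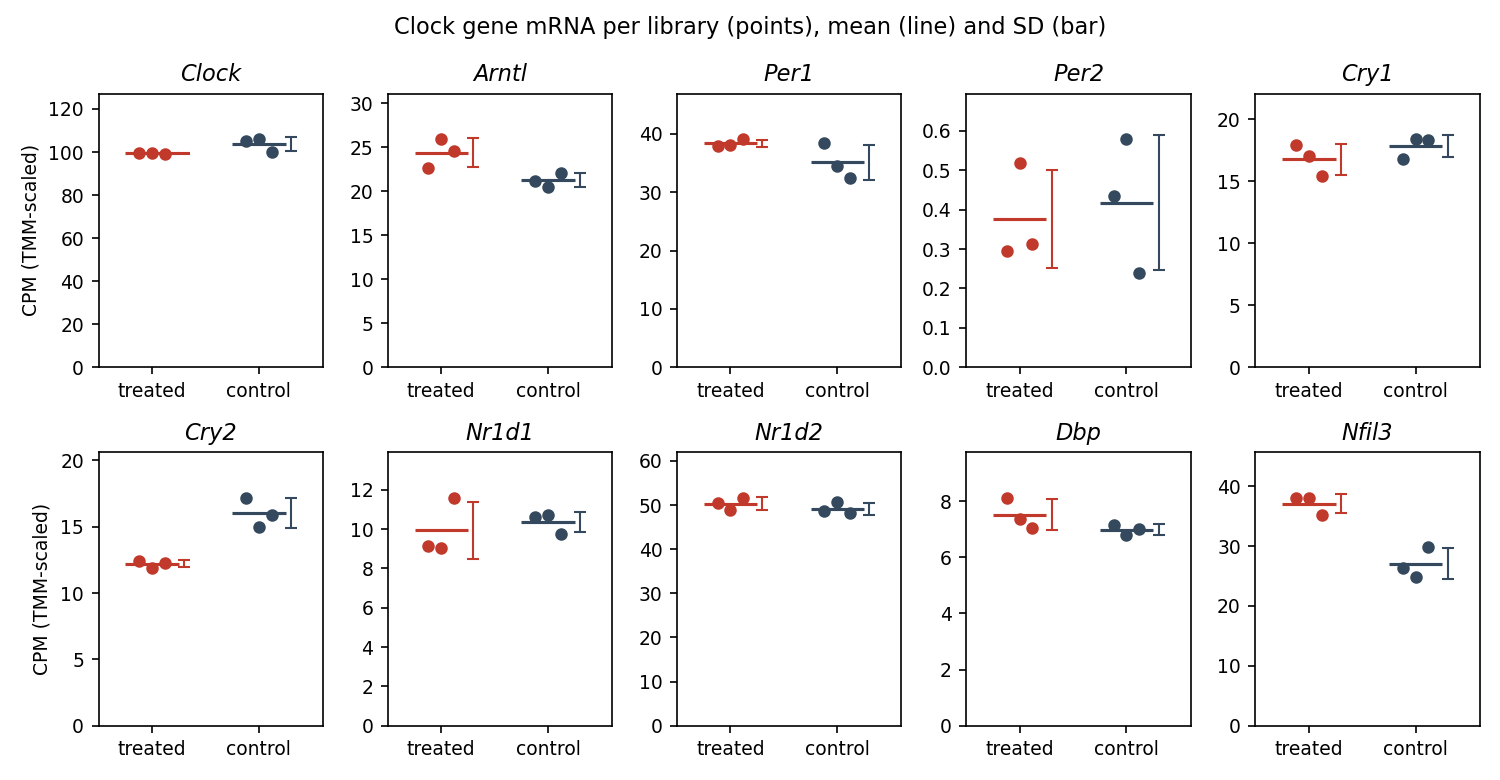
TMM-scaled CPM of each clock gene (vertical axes from 0, each gene on its own scale), with treated libraries on the left and control libraries on the right. Points are libraries, lines are means and bars are SD (n = 3 each). Nfil3, Arntl and Cry2 are the genes that passed the test, and Per2 lies under 1 CPM in all 6 libraries.

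Levels were compared between genes per kilobase of exonic length (RPKM, from TMM-scaled totals). Nfil3 was the most abundant, at 18.3 ± 0.802 RPKM in treated and 13.3 ± 1.29 RPKM in control cells (SD, n = 3 each). Nr1d2, Clock, Per1 and Cry1 followed in this order in both groups, with Nr1d2 at 9.30 and 9.09 RPKM and Cry1 at 5.01 and 5.34 RPKM in treated and control cells. The libraries of each of these 5 genes did not overlap those of the next gene in the order. In treated cells Arntl (3.24 RPKM), Nr1d1 (3.23), Dbp (2.51) and Cry2 (1.93) came next, and only Arntl and Nr1d1 overlapped among these neighbours. In control cells the order was Nr1d1 (3.37 RPKM), Arntl (2.82), Cry2 (2.54) and Dbp (2.33), and the libraries of Arntl overlapped those of Cry2, and those of Cry2 overlapped those of Dbp. Cry2 thus stood 9th of 10 in treated and 8th of 10 in control cells. Per2 was far below the others, at 0.0642 ± 0.0213 RPKM in treated and 0.0713 ± 0.0293 RPKM in control cells. With the longest transcript as the length, the values of 8 genes in control cells moved beyond their SD and the order shifted. Clock (10.2 RPKM in treated and 10.6 in control cells) and Nr1d2 (10.8 and 10.5) came level, while Cry2 (3.07 and 4.04) stood beside Nr1d1 (3.65 and 3.81). In treated cells Arntl (6.1 RPKM) then stood above Cry1 (5.53), and Dbp (4.1) above Nr1d1.

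**Figure D2:**
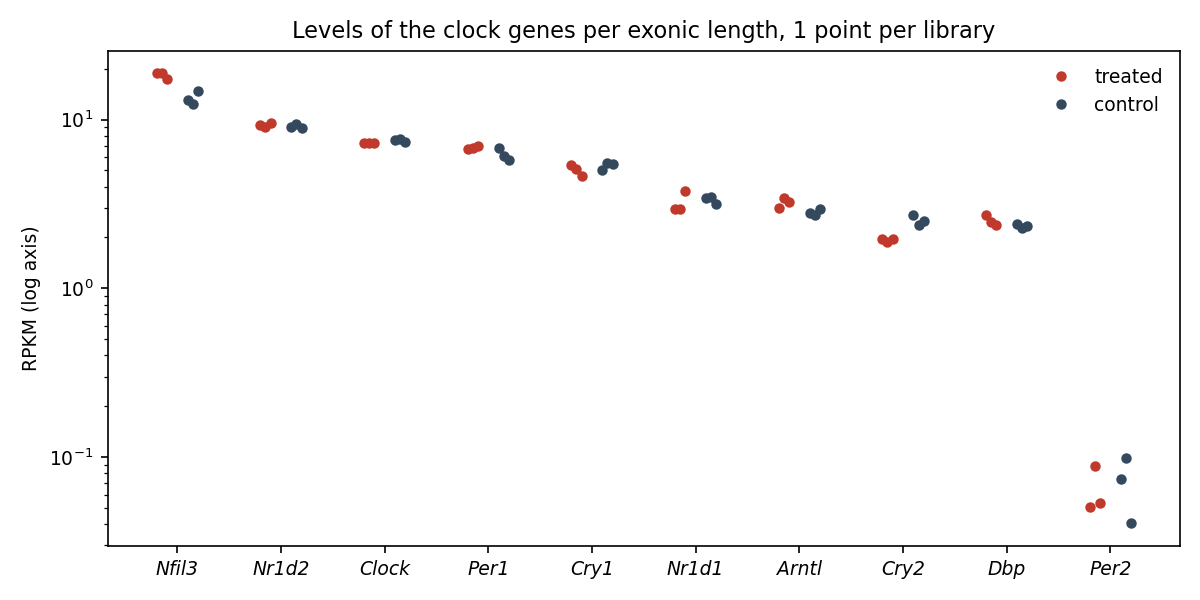
RPKM of the clock genes on a log axis, 1 point per library, treated left of control for each gene, ordered by the control mean. Nfil3 is highest in both groups and Per2 lies below 0.1 RPKM in all 6 libraries.

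Of the activators, Arntl (ENSMUSG00000055116, chromosome 7) rose and Clock (ENSMUSG00000029238, chromosome 5) did not pass. Arntl measured 22.6, 25.9 and 24.5 CPM in treated libraries, against 21.1, 20.5 and 22.1 CPM in control libraries. The lowest treated library stood just above the highest control library. The log2 fold change was 0.20 ± 0.07 (SE, edgeR adjusted p = 0.0141). It was no longer called without treated replicate 2 (edgeR adjusted p = 0.0993) or without control replicate 2 (edgeR adjusted p = 0.0541). Clock encodes the partner of BMAL1 in the dimer. It measured 99.4, 99.6 and 99.1 CPM in treated libraries, against 105, 106 and 100 CPM in control libraries. All treated values were lower, by a small margin, with a log2 fold change of -0.06 (95% interval -0.12 to 0.0012, edgeR adjusted p = 0.0933). The direction was opposite when library totals or level-dependent offsets replaced the scaling (0.02 in both), and it passed as lower without control replicate 3 (log2 fold change -0.08, edgeR adjusted p = 0.0442). Within a library the ratio of Arntl to Clock counts, which needs no scaling, was 0.228, 0.260 and 0.248 in treated and 0.202, 0.193 and 0.22 in control libraries. The ratio was higher in all treated libraries. An exact permutation test of 3 against 3 libraries cannot give a p below 0.1, and no p is given for this and the other ratios.

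The element through which ROR and REV-ERB proteins act on Arntl is shown because Arntl is the activator that rose. The RefSeq promoter windows (GRCm38.p6) run from 250 bases before to 50 bases after a start site, and 13 windows were found for 9 of the 10 genes. Per2 had no window, and sequence outside the windows was not searched for any gene. The core letters AGGTCA of this element, searched on both strands, were present in 5 of the 13 windows (Arntl, Clock, Nfil3, Nr1d2 and Per1) and in 16.3% of 32851 windows of all genes. In the second Arntl window they lay at bases 32 to 37 after the start site, in capitals here (chr7:113207531-113207555, plus strand).
Arntl: aggcagaaagtAGGTCAgggacgga

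Of the repressors, Cry2 fell, Per1 and Cry1 did not pass, and Per2 was barely detected. CRY proteins are the main inhibitors of the CLOCK and BMAL1 dimer, and Cry1 and Cry2 are close paralogs. Cry2 (ENSMUSG00000068742, chromosome 2) measured 12.4, 11.9 and 12.3 CPM in treated libraries, against 17.2, 15 and 15.9 CPM in control libraries. The groups were well apart, and the log2 difference of -0.40 ± 0.08 (SE) had an edgeR adjusted p of 0.000148. It stayed a fall under all 14 alternatives, with log2 fold changes of -0.45 to -0.32. Cry1 (ENSMUSG00000020038, chromosome 10) measured 17.9, 17 and 15.4 CPM in treated libraries, against 16.8, 18.4 and 18.3 CPM in control libraries. The groups overlapped, with a log2 fold change of -0.09 (95% interval -0.24 to 0.07, edgeR adjusted p = 0.333). The ratio of Cry1 to Cry2 counts within a library was 1.44, 1.43 and 1.25 in treated and 0.979, 1.23 and 1.15 in control libraries. It was higher in all treated libraries, although the nearest libraries of the groups nearly touched. A noncoding gene on the opposite strand, D930015M05Rik, overlaps 4.67% of the exonic bases of Cry2, and it held only 20 to 25 counts in treated and 14 to 20 counts in control libraries.

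Per1 (ENSMUSG00000020893, chromosome 11), a Period gene that also responds acutely to cAMP and to glucocorticoids, measured 37.9, 38.1 and 39.1 CPM in treated libraries, against 38.4, 34.5 and 32.5 CPM in control libraries. Control replicate 1 lay among the treated libraries and the other two controls lay below them. The log2 fold change was 0.13 ± 0.05 (SE, edgeR adjusted p = 0.0584). Without control replicate 1 it was 0.20 and passed (edgeR adjusted p = 0.00425), and without control replicate 3 it was 0.07 (edgeR adjusted p = 0.289). It also passed with DESeq2 size factors (edgeR adjusted p = 0.0497), library totals (0.00331), level-dependent offsets (0.0211), the filter at 1 CPM (0.0276) and protein-coding genes only (0.0328). It did not pass with no filter (0.0927), in DESeq2 (DESeq2 adjusted p = 0.0771) or without any other single library (edgeR adjusted p of 0.096 to 0.289), so that it was called in 7 of 14 alternatives. The ratio of Per1 to Cry2 counts was 3.05, 3.21 and 3.18 in treated libraries, against 2.23, 2.30 and 2.04 in control libraries. These ratios were widely apart, but their divisor, Cry2, was itself called lower in the same counts, so they do not test Per1 alone. Per2 (ENSMUSG00000055866, chromosome 1), the other main Period gene, had 10, 18 and 10 counts in treated libraries, against 17, 18 and 8 counts in control libraries. Its log2 fold change was -0.14 with a 95% interval of -1.06 to 0.78 (edgeR adjusted p = 0.818), so a difference of up to about that size was not detectable at this depth. In all libraries 71.0% to 73.6% of counts from 1 to 20 were even, so most fragments of low genes appear as a pair of reads and Per2 rests on fewer molecules than counts.

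The E-box is the sequence that CLOCK and BMAL1 bind, and its matches in the repressor genes are shown with 17 bases on either side. The letters CACGTG, which read the same on both strands, were present in 2 of the 13 windows of clock genes (Per1 and Cry1) and in 7.15% of all windows. The variant CACGTT, on either strand, was present in Cry1, Cry2 and Nr1d1 and in 4.68% of all windows. The Per1 match is at bases -166 to -161 from the start site (chr11:69098766-69098805, plus strand) and the Cry1 match at bases -60 to -55 (chr10:85185092-85185131, minus strand), each in capitals.
Per1: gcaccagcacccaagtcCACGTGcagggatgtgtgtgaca
Cry1: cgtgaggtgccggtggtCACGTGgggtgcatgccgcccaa

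The 250 bases before the Cry2 start site (chr2:92434070-92434319, minus strand) are given because Cry2 is the clock gene that fell. Capitals mark the variant E-box CACGTT on the opposite strand (AACGTG, bases -166 to -161) and the core TGACG of the cAMP response element on the opposite strand (CGTCA, bases -209 to -205). The core TGACG was found in 5 of the 13 windows, of Per1, Cry1, Cry2 and Nfil3, and in 20.8% of all windows. The full element TGACGTCA was found in 0 of the 13 and in 1.79% of all windows.
Cry2: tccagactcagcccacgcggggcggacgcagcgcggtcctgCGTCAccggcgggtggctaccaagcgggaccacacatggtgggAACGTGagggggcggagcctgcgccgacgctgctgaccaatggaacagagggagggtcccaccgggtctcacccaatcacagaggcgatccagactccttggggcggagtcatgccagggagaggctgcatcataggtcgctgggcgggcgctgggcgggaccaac

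**Figure D3:**
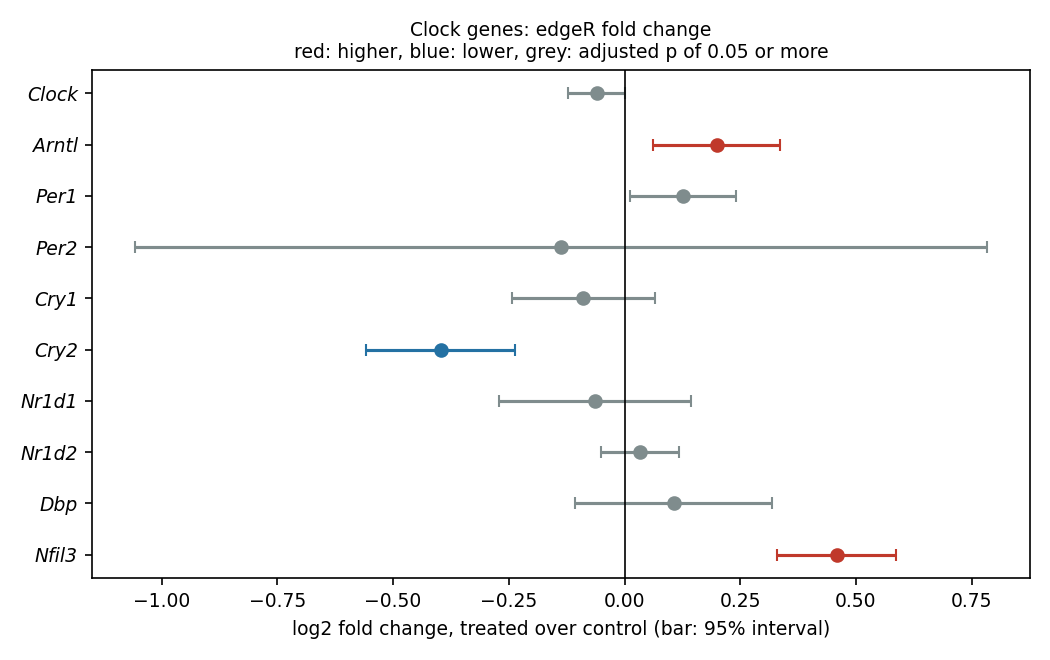
Log2 fold change of each clock gene, treated over control, from edgeR, with its 95% interval. Intervals are not adjusted for the number of genes tested. Cry2 (below 0) and Arntl and Nfil3 (above 0) passed after adjustment. The interval of Per1, 0.0121 to 0.2399, also lies above 0, though Per1 did not pass. The interval of Per2 spans -1.06 to 0.78.

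Neither REV-ERB gene passed. Nr1d1 (ENSMUSG00000020889, chromosome 11), which encodes REV-ERB alpha, measured 9.14, 9.06 and 11.6 CPM in treated libraries, against 10.6, 10.7 and 9.77 CPM in control libraries. Treated replicate 3 was the highest of all 6 and the other treated libraries were the lowest. The log2 fold change was -0.06 (95% interval -0.27 to 0.14, edgeR adjusted p = 0.622), and its sign turned with library totals (0.01). The last exons of Nr1d1 overlap those of Thra, the thyroid hormone receptor alpha gene, on the opposite strand over 8.55% of the exonic bases of Nr1d1. Thra rose by 0.36 on the log2 scale (edgeR adjusted p = 1.50e-05, 31.8 CPM in treated and 24.8 CPM in control cells), and since the strand setting of the counting is not given, reads from this overlap cannot be told apart. Nr1d2 (ENSMUSG00000021775, chromosome 14), which encodes REV-ERB beta, measured 50.4, 48.9 and 51.7 CPM in treated libraries, against 48.6, 50.6 and 48.2 CPM in control libraries. The groups overlapped, and the log2 fold change of 0.03 had a narrow 95% interval of -0.05 to 0.12 (edgeR adjusted p = 0.511). Among the 14 alternatives it passed with library totals alone (0.11, edgeR adjusted p = 0.0232). The ratio of Nr1d1 to Nr1d2 counts was 0.181, 0.185 and 0.224 in treated libraries, against 0.218, 0.212 and 0.203 in control libraries, and the groups overlapped.

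The pair of D-box regulators differed. Nfil3 (ENSMUSG00000056749, chromosome 13), also called E4BP4, is a repressor of D-box genes, including Per2. It measured 38.1, 38.0 and 35.2 CPM in treated libraries, against 26.3, 24.9 and 29.9 CPM in control libraries. All treated libraries were well above all controls, and the log2 difference of 0.46 ± 0.06 (SE) had an edgeR adjusted p of 1.34e-06. It was a rise under all 14 alternatives, with log2 fold changes of 0.40 to 0.54, and its absolute change was at percentile 78.7 of all tested genes. Dbp (ENSMUSG00000059824, chromosome 7), the activator that competes for the same sites, measured 8.13, 7.38 and 7.05 CPM in treated libraries, against 7.16, 6.79 and 7.01 CPM in control libraries. The groups overlapped, with a log2 fold change of 0.11 (95% interval -0.11 to 0.32, edgeR adjusted p = 0.409) that turned to -0.0075 with level-dependent offsets. The sphingosine kinase gene Sphk2, on the opposite strand, overlaps 18% of the exonic bases of Dbp. Sphk2 held 838 to 869 counts in treated and 755 to 989 counts in control libraries, more than the 225 to 276 and 211 to 280 counts of Dbp, so the count of Dbp is uncertain. The ratio of Nfil3 to Dbp counts was 4.68, 5.15 and 5 in treated libraries, against 3.66, 3.66 and 4.27 in control libraries, higher in all treated libraries.

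The 250 bases before the Nfil3 start site (chr13:52981040-52981289, minus strand) are given because Nfil3 rose most. Capitals mark the core TGACG on the opposite strand (CGTCA, bases -59 to -55) and the ROR element core AGGTCA on the opposite strand (TGACCT, bases -12 to -7).
Nfil3: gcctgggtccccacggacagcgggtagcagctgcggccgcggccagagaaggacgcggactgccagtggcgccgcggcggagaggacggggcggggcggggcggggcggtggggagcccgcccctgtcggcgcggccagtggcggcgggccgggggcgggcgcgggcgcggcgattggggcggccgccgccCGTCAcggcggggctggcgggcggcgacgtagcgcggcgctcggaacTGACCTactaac

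Among the other core clock factors the DEC genes fell, and Rora and Arntl2 rose. Of 9 listed, 7 were tested (Npas2 was not analysed here and Rorb did not pass the filter), of which 2 rose, 2 fell and 3 did not pass (4 of 7 called, near the 53.0% of all tested genes), with a median log2 fold change of -0.14 against 0.0068 for all tested genes. Bhlhe41, which encodes DEC2, a repressor that binds E-boxes, measured 107, 99.6 and 105 CPM in treated libraries, against 170, 176 and 169 CPM in control libraries. It fell by 0.72 on the log2 scale (SE 0.03, edgeR adjusted p = 5.69e-15), the largest fall on the clock lists. Its paralog Bhlhe40, which encodes DEC1, fell by 0.29, with 164 ± 3.90 CPM in treated and 200 ± 4.41 CPM in control cells (edgeR adjusted p = 6.03e-09). Rora, which encodes an activator of Arntl, measured 47.4, 46.5 and 43.6 CPM in treated libraries, against 33.3, 32.8 and 34.8 CPM in control libraries. Every treated library was above every control, and Rora rose by 0.45 (edgeR adjusted p = 3.36e-08). The ratio of Rora to Nr1d1 counts, of activator to repressor at the same element, was 5.19, 5.14 and 3.76 in treated libraries, against 3.14, 3.06 and 3.57 in control libraries. Arntl2, the paralog of Arntl, rose by 0.52, with 7.71 ± 0.307 CPM in treated and 5.39 ± 0.811 CPM in control cells (edgeR adjusted p = 7.25e-04). Per3 had 5.71 CPM in treated and 4.69 CPM in control cells (edgeR adjusted p = 0.0752, and 0.024 with library totals), and Ciart, an inhibitor of the dimer, 2.03 and 2.24 CPM (edgeR adjusted p = 0.588).

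Of the other D-box activators, Tef fell by 0.31, with 74.1, 77.6 and 74.9 CPM in treated libraries, against 97.5, 93.9 and 89.7 CPM in control libraries (edgeR adjusted p = 8.22e-08). Hlf was low, at 1.78 CPM in treated and 1.94 CPM in control cells, and did not pass (edgeR adjusted p = 0.639). The E-boxes of Bhlhe41, Tef and Ciart are shown beside those of Per1 and Cry1, the first and second being genes that fell and Ciart one that did not pass. Those of the genes that fell lie at bases -153 to -148 of Bhlhe41 (chr6:145865551-145865590, minus strand) and at bases -127 to -122 of the first Tef window (chr15:81802529-81802568, plus strand) and -138 to -133 of the second (chr15:81811259-81811298, plus strand). Ciart has 3 such matches, and the one at bases -116 to -111 is given (chr3:95882322-95882361, minus strand). On the other lists, matches also stood in the windows of Cul1, Sirt1, Kat5 and Fkbp5, which fell, and of Sgk1 and Dusp1, which rose.
Bhlhe41: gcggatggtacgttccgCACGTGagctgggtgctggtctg
Tef, first window: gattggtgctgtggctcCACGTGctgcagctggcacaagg
Tef, second window: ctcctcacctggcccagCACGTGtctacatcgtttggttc
Ciart: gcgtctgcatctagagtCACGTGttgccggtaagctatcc

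Over all tested genes with a promoter window, 27.9% were higher and 31.4% lower. Of the 1202 with CACGTG in a window, 27.6% were higher and 36.4% lower, and of the 81 with a D-box (TTATGTAA or TTACGTAA, either strand) 27.2% were higher and 28.4% lower. Of the 1521 with AGGTCA, 28.8% were higher and 30.2% lower. Of the 659 with CACGTT, 27.3% were higher and 37.0% lower, and of the 3611 with TGACG, which lies within TGACGTCA, 27.2% were higher and 34.8% lower. Of the 369 with TGACGTCA, 28.7% were higher and 29.3% lower. Of the 41 with a glucocorticoid response element, 39.0% were higher and 22.0% lower. These shares are a description with no test, and a match does not show that a factor binds there.

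**Figure D4:**
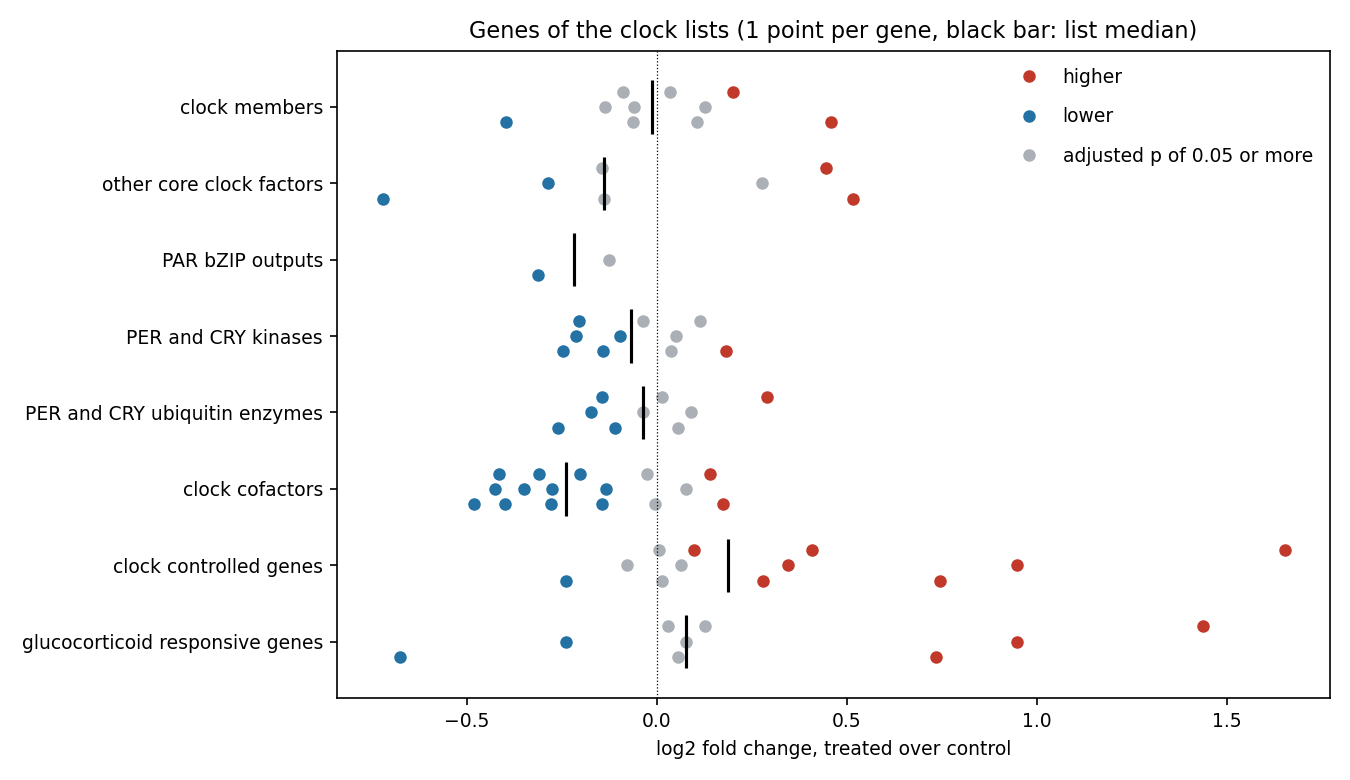
Log2 fold change (treated over control) of each tested gene on the clock lists, 1 point per gene, with the list median as a black bar. Most cofactors lie below 0, and 7 of the 12 clock controlled genes are marked as higher.

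The lists of enzymes that act on clock proteins after translation were called about as often as the 53.0% of all tested genes. Of 10 kinase genes, 1 rose, 5 fell and 4 did not pass, with a median log2 fold change of -0.07. Csnk2b and Prkaa1, for the regulatory subunit of casein kinase 2 and a catalytic subunit of AMPK, fell by 0.25 and 0.21. Gsk3b, a kinase of REV-ERB alpha and other clock proteins, rose by 0.18 (246 CPM in treated and 217 CPM in control cells). Csnk1e, a kinase that marks PER proteins for degradation, fell by 0.20 (93.1 and 107 CPM), while its paralog Csnk1d did not pass (185 and 179 CPM, edgeR adjusted p = 0.144). Csnk1d was called higher with library totals (log2 fold change 0.13, edgeR adjusted p = 0.000582) and level-dependent offsets (0.16, 4.91e-05). Of 9 tested ubiquitin ligase and protease genes, 1 rose, 4 fell and 4 did not pass, with a median log2 fold change of -0.04. The scaffold gene Cul1 fell by 0.26 (241 CPM in treated and 288 CPM in control cells). Fbxw7, a ligase subunit for REV-ERB alpha, rose by 0.29 (38.7 and 31.6 CPM). The falls of Csnk1a1, Csnk2a2, Ddb1, Usp7 and Skp1 on these lists were no longer called with level-dependent offsets, where Skp1 had a log2 fold change of 0.01. Library totals also ended the calls of Skp1 and Csnk2a2, and that of Csnk2a2 was further lost without treated replicate 2 and without control replicate 1.

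Of 16 cofactor genes, 11 fell, 2 rose and 3 did not pass, where 27.9% of all tested genes were lower and 25.1% higher, with a median log2 fold change of -0.24. The list was chosen with earlier results of these data known, so its share is a description and an excess was not tested. Nono, for an RNA-binding protein found with PER proteins, fell by 0.43 (432 CPM in treated and 580 CPM in control cells). Hdac3, for the deacetylase of the corepressor complex that REV-ERB proteins recruit, fell by 0.28 (65.2 and 79.1 CPM). The arginine methyltransferase gene Prmt5 fell by 0.35 and Timeless by 0.31. Kat5, for the acetyltransferase TIP60, fell by 0.48 (17.9 and 24.9 CPM), and Sirt1, for a deacetylase, fell by 0.42 (16.6 and 22.1 CPM). The falls of the corepressor gene Ncor1 (-0.13) and of Wdr5 (-0.14) were not called once level-dependent offsets or library totals were used, and Ncor1 came to 0.0013 with the offsets. The demethylase gene Kdm5a and the methyltransferase gene Kmt2a rose by 0.17 and 0.14.

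Several genes known to be clock controlled rose. Of 12 tested, 7 rose, 1 fell and 4 did not pass, where 25.1% of all tested genes were higher and 27.9% lower, with a median log2 fold change of 0.19. This list too was chosen with earlier results known, and an excess was not tested. Klf9, a Kruppel-like repressor, rose by 0.95 (22.5 ± 0.372 CPM in treated and 11.7 ± 0.386 CPM in control cells, edgeR adjusted p = 8.28e-11). Noct, for nocturnin, rose by 0.75 (67.9 ± 5.79 and 40.5 ± 0.823 CPM, edgeR adjusted p = 1.34e-11). Lpin1, Ppargc1a, the mitotic entry kinase gene Wee1 and the NAD synthesis gene Nampt rose by 0.41, 0.35, 0.28 and 0.10. Fkbp5 fell by 0.24, while Por, Klf10, Cdkn1a and Usp2 did not pass. Por and Cdkn1a were called higher with library totals (edgeR adjusted p of 0.000482 and 0.00547) and with the offsets (0.000615 and 6.59e-05), and Por also with the filter at 1 CPM (0.0281) and with protein-coding genes only (0.0427). Each of these genes is known to respond to other stimuli besides the clock.

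Per1 is also a target of the glucocorticoid receptor, and other such targets went both ways. Of 9 tested on this list, which holds Per1 and the receptor gene Nr3c1, 3 rose, 2 fell and 4 did not pass (5 of 9 called, near the 53.0% of all tested genes), with a median log2 fold change of 0.08. Sgk1, for a serum and glucocorticoid regulated kinase, rose by 1.44 (10.1 ± 0.229 CPM in treated and 3.69 ± 0.639 CPM in control cells), and the phosphatase gene Dusp1 rose by 0.74 (14.2 and 8.57 CPM). Klf9 stands on this list as well. Fkbp5 and the metallothionein gene Mt2 fell, the second by 0.68 (3.31 and 5.28 CPM). Tsc22d3, another classic target, did not pass (12.8 and 12.5 CPM, edgeR adjusted p = 0.769), and neither did the receptor gene Nr3c1 (53.5 and 51.4 CPM, edgeR adjusted p = 0.272). When library totals set the scale, 8 of the 9 were called, as were 8114 of all 15150 genes, 5069 of them higher. Nr3c1 was among those so called (edgeR adjusted p = 0.009), and it passed with level-dependent offsets as well (0.0354).

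The protein-coding gene whose pattern over the 6 libraries was closest to each changed clock gene was found by the Euclidean distance of log2 CPM centred on each gene's own mean. For Nfil3 it was Agbl3 (distance 0.0897, log2 fold change 0.46), for Cry2 it was Dus1l (0.0626, log2 fold change -0.35) and for Arntl it was Selenoo (0.0592, log2 fold change 0.16, which did not pass). With 6 libraries in 2 groups, such likeness mainly reflects the size of the group difference.

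**Figure D5:**
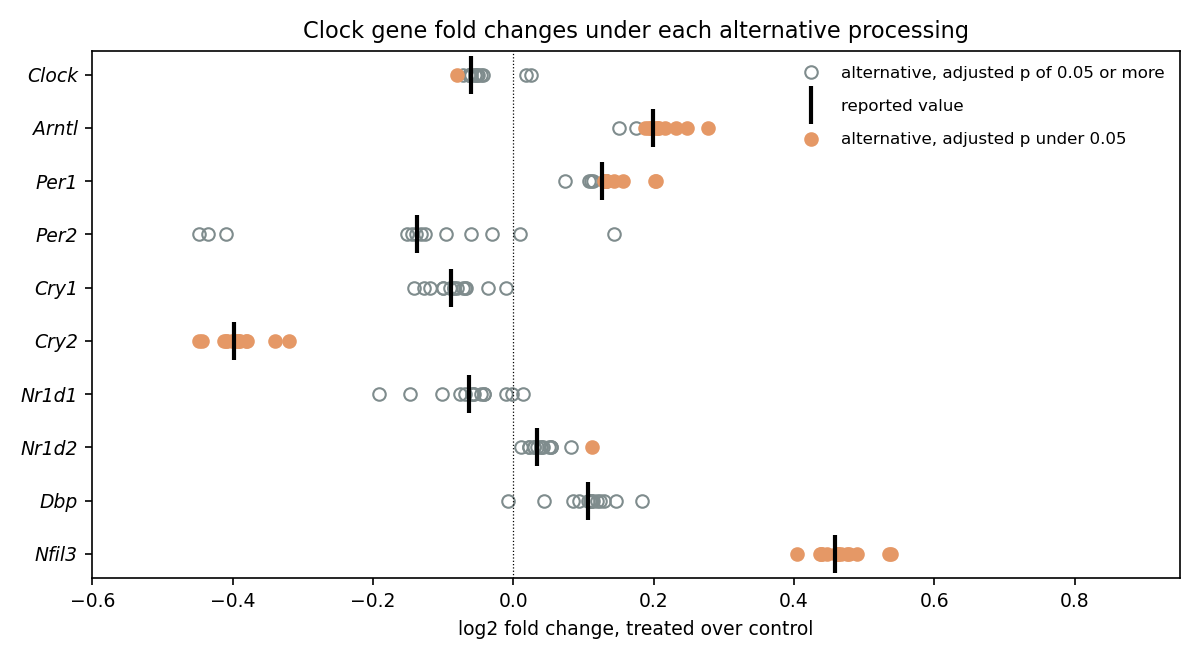
Log2 fold change of each clock gene (treated over control) as reported (black bar) and under each alternative processing (circles, filled where the adjusted p was under 0.05). Nfil3 and Cry2 are filled throughout, Arntl is open in 2 alternatives, and Per1 is filled in some and open in others.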

How the data were processed

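RNA-seq libraries of 3 extract-treated and 3 control B16F10 samples were compared. The authors deposited unnormalised read counts per Ensembl gene and library. Per the submitters' processing notes, fastp 0.22.0, HISAT2 2.2.0 and featureCounts 2.0.6 were used, and both hg38 and mm39 are listed with no role. The sources used here do not give the annotation or the strand setting. Symbols, biotypes and exonic lengths came from GENCODE M21 (GRCm38), which named 26531 of 27067 identifiers. Promoters came from RefSeq (GRCm38.p6), whose coordinates are of that build and not of the listed mm39.

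From the counts, filterByExpr (minimum count 10, minimum total 15) left 15150 genes. Libraries were scaled by TMM. Treated was compared with control by the two-sided quasi-likelihood F test of edgeR 4.0.16 in R 4.3.3, with group as the only term and Benjamini-Hochberg adjustment, called at 0.05. CPM and RPKM use TMM-scaled totals. SE is the absolute log2 fold change over the square root of F. The biological coefficient of variation was 3.70%. No pair of libraries of a group agreed within sampling noise (chi-square per gene of at least 1.62 on halved counts). The code was tested on simulated data.

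The clock genes and the gene lists were chosen with earlier results of these data known. Every clock gene is named, the other lists are named by smallest p first (with some genes that did not pass named for their role), and likeness is named for changed clock genes. Alternatives were DESeq2 size factors, library totals, level-dependent offsets from cyclic loess (limma 3.58.1), no filter, at least 1 CPM in 3 or more libraries, only protein-coding genes, DESeq2 1.42.0, the replicate number as a block, each library left out, and the longest transcript as length. Skp1 was matched through its older symbol. Some genes counted on the lists are not reported by name here.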

Additional observations from a re-analysis of the deposited data

How the results depend on the processing

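Nfil3 stayed higher and Cry2 lower, both called, under all 14 alternatives. The count of clock genes called higher was 2 as reported and 4 with library totals. It was 3 with DESeq2 size factors, level-dependent offsets, the filter at 1 CPM and protein-coding genes only. When single libraries were left out it ranged from 1 to 3. The count called lower was 1, and 1 to 2 when single libraries were left out. Called glucocorticoid responsive genes numbered 5, and 8 with library totals, which shift the median log2 fold change of all tested genes to 0.08 from 0.0068. The sign turned for Clock with library totals (0.0177) and level-dependent offsets (0.0248), for Nr1d1 with library totals (0.0142) and for Dbp with level-dependent offsets (-0.0075). For Per2 it turned without treated replicate 1 (0.0091) and without control replicate 2 (0.1438), within a range of -0.45 to 0.14 over the libraries left out, and Per2 was not tested with the filter at 1 CPM. The cause was not tested. All tested genes changed numbered 8032 and stayed within 7389 to 8114. Library totals moved the share of higher genes among them to 62.5%, from 47.4%. The replicate numbers are not stated to pair the samples, and deviations of same-numbered libraries had correlations of -0.014, -0.040 and 0.008, so that not every library correlated best with its own number. The replicate block gave 8061 changed genes, called 3 clock genes higher and 1 lower, and changed the call of 1 clock gene, Per1 (edgeR adjusted p = 0.0444). Under it the called genes on the other lists numbered 4 (other core clock factors), 1 (D-box activators), 7 (kinases), 5 (ubiquitin enzymes), 13 (cofactors), 8 (clock controlled) and 6 (glucocorticoid responsive).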
